A study of Rattus norvegicus with 12 samples.

Results

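T cells recovered from the spinal cord meninges of rats with experimental autoimmune encephalomyelitis were compared with T cells of the same specificity recovered from blood, using the 3 meninges libraries and the 3 blood libraries of a series of 12. The libraries were assigned to the groups by their titles. All were CD4+ Tmbp cells, that is T cells specific for myelin basic protein. They carried green fluorescent protein, came from wild type Lewis rats and were sorted in the cold by flow cytometry before messenger RNA was sequenced. The remaining 6 libraries, 3 from cerebrospinal fluid (CSF) and 3 from CNS parenchyma, entered the same fit and serve below only to place the meningeal changes. The labels give no age, day of disease or treatment, and they do not say how the fluorescent protein was introduced, whether animals were pooled or whether the numbered libraries came from separate animals. The p-values therefore measure the spread between these libraries, and part of that spread may be technical.

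Experimental autoimmune encephalomyelitis is an autoimmune disease of the central nervous system (CNS) that models aspects of multiple sclerosis, and in the Lewis rat it can be driven by T cells against myelin basic protein, a protein of the myelin sheath. Such cells circulate in the blood, attach to vessels of the spinal cord, cross into the meninges that cover it and there meet antigen-presenting cells, while the CSF that bathes the meninges exchanges cells with them. The comparison asks which genes differ between circulating cells and cells that have entered this border tissue. The files identify genes by Ensembl number without names, and 0 of the 47357 entries of the RefSeq gene table for the rat assembly GRCr8 carry an Ensembl number. Genes are therefore described as groups by size of change and abundance, 4 are given by identifier, and their functions, positions and sequences are not given. For the same reason the T cell label could not be checked against marker genes, and the part that RNA of other cell types had in any result was not tested.

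Gene counts totalled 13267031 to 17438057 per library in blood and 11277725 to 15596984 in meninges, and the upper limit set by a count of 0 in 1 library, 3 counts, stood for 0.172 to 0.266 CPM (a gene's count divided by the library total and brought to a fixed sum). That limit and the binomial intervals below cover counting error only, as reads carry no molecular identifiers. Blood replicate 3 and meninges replicate 2 had 65.2% and 61.4% of their entries listed as aligned to several places, against 36.5% to 43.9% in the other 4 libraries. Meninges replicate 3 had a count for 18299 genes, against 14868 to 16096 in the other 5 libraries. It alone of the meninges libraries held 2823 genes, at a median of 1 count and with 0.0312% of its gene counts in all, whereas 409 and 549 genes were seen in meninges replicates 1 and 2 alone. Within each group the libraries differed by more than counting noise, with a chi-square per degree of freedom from 3.85 for meninges replicates 1 and 3 to 23.2 for blood replicates 2 and 3. Blood replicate 2 also stood at 19.0 against blood replicate 1, whereas blood replicates 1 and 3 stood at 9.13.

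A large share of the genes tested differed between meningeal and blood T cells, most of them by a small factor. Of 11498 genes, 1908 were higher in meninges (16.6%) and 2187 lower (19.0%), together 4095 or 35.6%, at an adjusted p under 0.05 in edgeR's quasi-likelihood test. The groups did not overlap, with all 3 libraries of one group above all 3 of the other, for 3997 of the 4095 genes, and for 5858 of all genes tested (50.9%). The median fold among called genes was 1.49 for those higher and 1.44 for those lower, and 90% of them lay below 4.01-fold and 2.73-fold. Levels here and below are CPM with TMM scaling (trimmed mean of M values), and over all genes the median log2 fold change of meninges minus blood was -0.01. The share of calls that were higher was 46.6%, and it ran from 46.4% to 51.8% over 17 alternative settings. Whether rises or falls were more numerous therefore varied with the setting. In bulk libraries a change of RNA in every cell and a change in the fraction of cells that express a gene cannot be told apart.

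**Figure D1:**
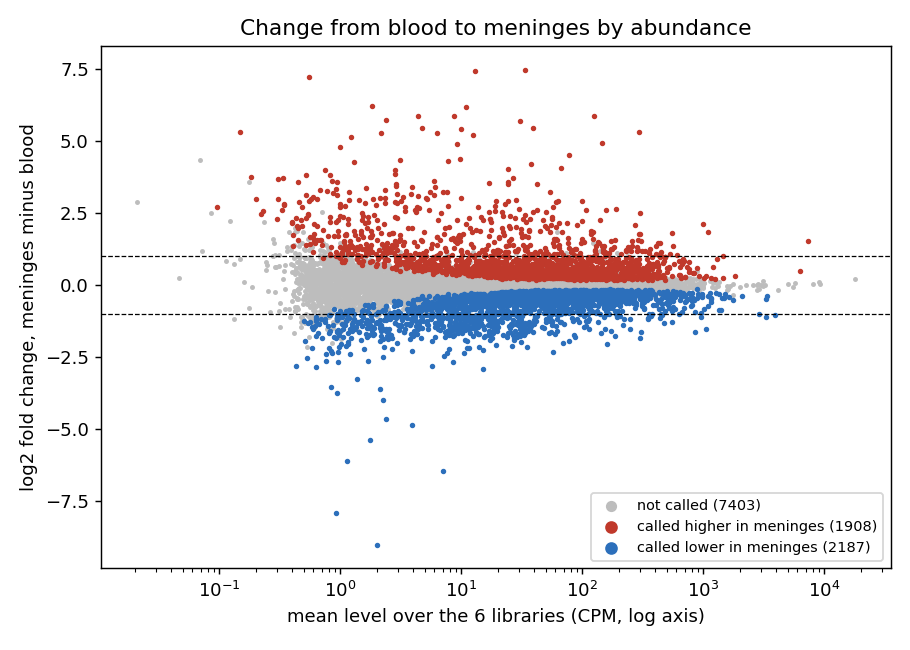
Log2 fold change of meninges minus blood (vertical axis) against the mean CPM of the 6 libraries (horizontal log axis), 1 point per gene tested, with called genes coloured by direction and dashed lines at 2-fold. Called genes with small changes form bands on both sides of 0 from about 10 CPM upward, the falls beyond 8-fold all lie below 10 CPM, and large rises extend above 100 CPM.

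Many genes were measured closely enough to bound their change. The 95% interval of the fold change lay inside 1.5-fold in either direction for 6330 genes (55.1%), of which 5102 were not called and 1228 were called. A further 2301 genes were neither called nor bounded within 1.5-fold, and 125 genes that were not called had a fitted change beyond 2-fold. At the other end, the whole 95% interval lay beyond 2-fold for 277 genes higher in meninges and 164 lower. These intervals are per gene, with no correction for the number of genes.

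Changes below 2-fold were more often falls, and changes beyond 4-fold more often rises. Below 1.5-fold, 961 genes were higher and 1198 lower, and from 1.5 to 2-fold 436 were higher and 456 lower. Falls below 2-fold outnumbered rises in 16 of 17 alternatives, a count also made after the data were seen, and the fit without the filter on low counts reversed the order, with 1481 rises and 1432 falls. Beyond 2-fold, 511 genes were higher (4.44% of those tested) and 533 lower (4.64%), with 319 and 481 of them below 4-fold. From 4 to 8-fold the order was the other way, with 119 genes higher and 40 lower, and beyond 8-fold 73 were higher and 12 lower. The 192 genes more than 4-fold higher stood at a median of 0.694 CPM in blood and 7.10 in meninges, and the 52 genes more than 4-fold lower at 3.88 and 0.397. For 2 genes of each set the low group had no counts. With 3 counts over the 3 libraries as the floor of the low group, 189 and 51 of these genes were still more than 4-fold apart. Rises beyond 4-fold outnumbered falls in all 17 alternatives, by ratios from 1.67 to 4.48, a count examined after the data were seen. The number of falls beyond 4-fold was 108 without meninges replicate 3, beside 180 rises, and 94 without blood replicate 2, beside 227 rises.

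**Figure D2:**
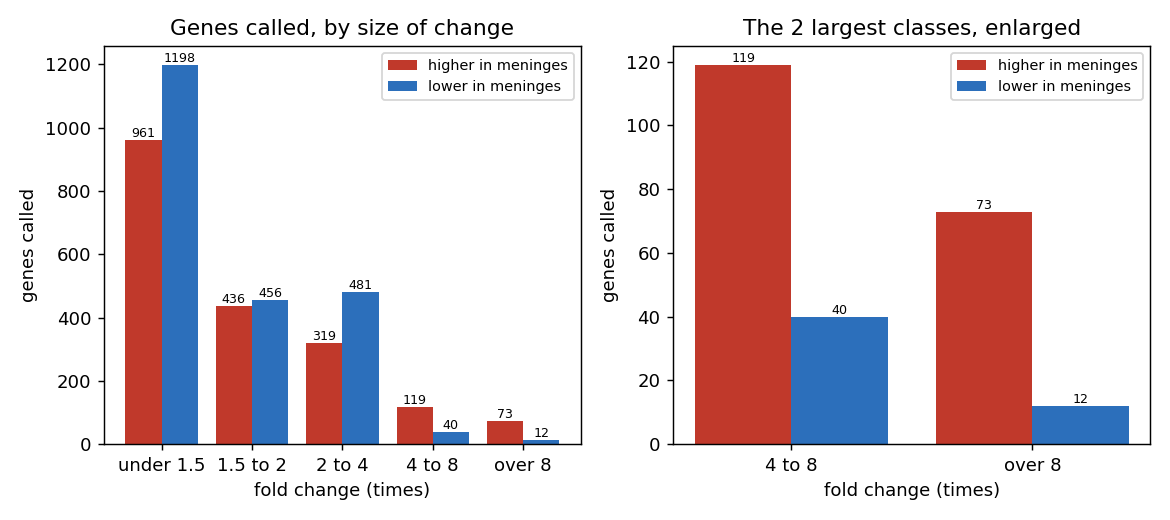
Number of genes called (vertical axes) by fold change (horizontal axes) and direction, with all classes on the left and the 2 largest enlarged on the right. Falls outnumber rises up to 4-fold (481 against 319 from 2 to 4-fold), and rises outnumber falls beyond it (73 against 12 beyond 8-fold).

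The larger share of rises among big changes was also present in genes with many counts. At a mean of at least 10 CPM in the higher group, 85 genes were more than 4-fold higher in meninges and 18 more than 4-fold lower, among 1522 and 1812 genes called. At 100 CPM or more the numbers were 19 and 2, among 553 and 604 called. Beyond 8-fold at 100 CPM or more there were 5 rises and 0 falls in this edgeR test, and also 0 falls at an unadjusted p under 0.05 or by DESeq2 or limma-voom.

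Those 5 abundant genes stood between 4.25 and 14.7 CPM in blood and between 125 and 571 CPM in meninges, which is 16.7-fold to 58.0-fold higher, with adjusted p-values from 4.65e-08 to 2.35e-06 in edgeR's test. All 3 meninges libraries lay above all 3 blood libraries for each of them. In the CSF their means ran from 3.33 to 193 CPM and in parenchyma from 152 to 1099 CPM. In the direct test of meninges against CSF 4 of the 5 were higher in meninges, and in that of parenchyma against meninges 2 were higher still in parenchyma. The gene with the lowest CSF level of the 5 stood at 8.54, 6.29 and 7.65 CPM in the blood libraries, 137, 112 and 127 in meninges. The other libraries held 3.06, 2.71 and 4.22 CPM (CSF) and 207, 132 and 118 CPM (parenchyma). It was 5.26 higher on the log2 scale in meninges than in CSF (SE 0.24, adjusted p = 8.67e-08). Its meninges and parenchyma libraries overlapped (log2 difference 0.28, SE 0.18, adjusted p = 0.353). The 2 genes of at least 100 CPM in blood that were more than 4-fold lower had means of 112 and 259 CPM in blood against 27.3 and 63.0 in meninges (adjusted p = 1.77e-05 and 1.83e-06 in edgeR's test).

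The share of genes called grew with abundance, while the share changed beyond 2-fold was larger at low abundance. By mean CPM over the 6 libraries, 16.8% of 809 genes under 1 CPM were called (exact 95% binomial interval 14.3% to 19.6%), 29.2% of 2584 genes from 1 to 10 CPM, 37.9% of 5772 genes from 10 to 100 CPM, 43.3% of 2261 genes from 100 to 1000 CPM and 50.0% of 72 genes at 1000 CPM or more (38.0% to 62.0%). The median standard error of the log2 fold change fell by class from 0.46 to 0.24, 0.10, 0.08 and 0.08, so smaller changes could be called in abundant genes. Accordingly 94.9% of the calls under 1 CPM were more than 2-fold apart, against 17.2% of those from 10 to 100 CPM and 11.1% of those from 100 to 1000 CPM. As a share of all genes in the class, called changes beyond 2-fold made up 15.9% under 1 CPM, 16.3% from 1 to 10 CPM, 6.51% from 10 to 100 CPM, 4.82% from 100 to 1000 CPM and 11.1% of the 72 most abundant.

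**Figure D3:**
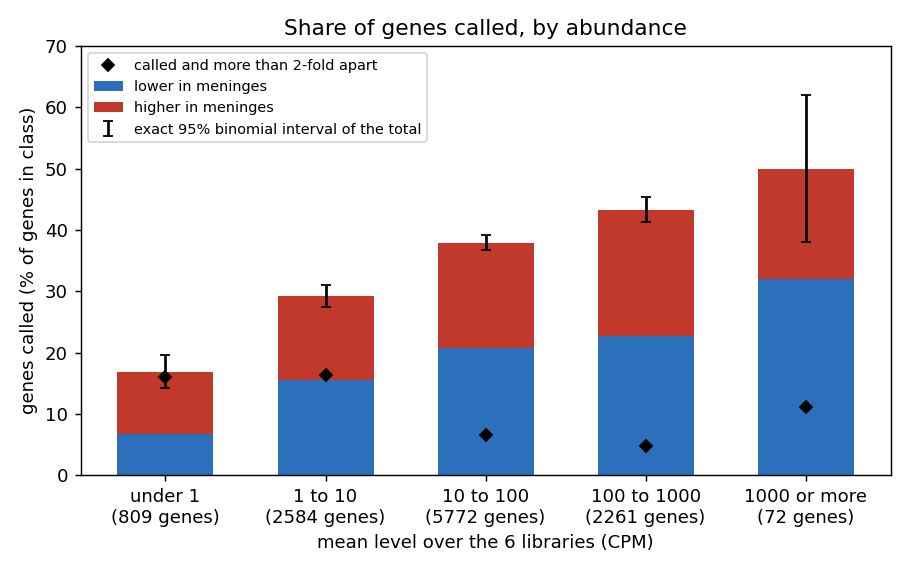
Genes called as a percentage of the genes in each class of mean CPM, split into lower and higher in meninges, with exact 95% binomial intervals of the total, which treat genes as independent, and diamonds for genes called and more than 2-fold apart. The total rises from 16.8% to 50.0% across the classes, and the diamonds drop from about 16% below 10 CPM to 4.82% between 100 and 1000 CPM.

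Rises and falls were least evenly matched at the ends of the abundance range. Of the genes called under 1 CPM 82 were higher and 54 lower, and of those at 1000 CPM or more 13 were higher and 23 lower. In the 3 classes between them the share higher ran from 45.3% to 47.7%. With classes set by the blood mean alone the share higher was 91.8% under 1 CPM and 15.8% at 1000 CPM or more, since genes that rise or fall then enter the class of their starting level. The split at both ends thus depends on which libraries define abundance.

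Most of the counts gained or lost belonged to genes from 100 to 1000 CPM. Summed over genes, the called rises came to 81036 CPM and the called falls to 82139 CPM. Genes from 100 to 1000 CPM held 57.6% of the summed rises and 54.0% of the summed falls, and the genes at 1000 CPM or more another 18.8% and 22.2%. Genes under 10 CPM, although 437 of the 1908 rises and 454 of the 2187 falls were among them, held under 2% of either sum. By size, rises of less than 1.5-fold added 2.71 percentage points to the share of gene counts, those from 1.5 to 2-fold 2.08, those from 2 to 4-fold 2.61, those from 4 to 8-fold 0.533 and those beyond 8-fold 0.236 points. The falls changed it by -3.98, -2.02, -2.32, -0.0669 and -0.00507 points in the same classes. Rises of 2 to 4-fold thus added nearly as much as rises of less than 1.5-fold, but this rests in part on 1 gene. That gene, 2.88-fold higher, made up 7124 of the 81036 CPM of all rises. Genes beyond 4-fold moved the fewest counts. Over all classes together, 115 genes held 50% of the rises and 116 genes 50% of the falls, and the top 10 of each held 19.2% and 16.4%.

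The lists of the most abundant genes in blood and meninges largely overlapped. Of the 100 genes with the highest CPM in blood, 79 were also among the 100 highest in meninges, and of the 20 highest 17. Of the 100 highest in blood 41 were lower in meninges and 11 higher, of which 6 and 2 beyond 2-fold. Of the 100 highest in meninges 26 were higher and 22 lower, with 5 and 3 beyond 2-fold. The largest fold among the called genes of the blood list was 3.14. Because each list is chosen on 1 of the groups compared, part of the difference in direction comes from the choice.

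At 1000 CPM or more, 8 genes were called beyond 2-fold, 4 in each direction. The largest gain of all was that of a gene at 2684, 6287 and 2400 CPM in blood replicates 1, 2 and 3 and at 9602, 13308 and 9833 CPM in meninges. Replicate 2 was the highest library in blood and meninges, and also in CSF (14331 CPM) and parenchyma (20248 CPM). All 3 meninges libraries lay above all 3 blood libraries, and the change came to 1.53 on the log2 scale (SE 0.31, adjusted p = 0.00167 in edgeR's test). This 1 gene accounted for 7124 CPM of the summed rises. Its level in meninges did not differ in the test from that in CSF (adjusted p = 0.875) or parenchyma (adjusted p = 0.263), and the means there were 11958 and 16086 CPM. The largest loss was that of a gene at 5243, 5360 and 5343 CPM in blood and 2299.6, 2787 and 2541 CPM in meninges, a log2 fold change of -1.06 (SE 0.10, adjusted p = 4.11e-06). It was lower again in parenchyma, at a mean of 1746 CPM (adjusted p = 0.00412 against meninges).

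The other 6 of these 8 genes included 1 whose libraries overlapped. The 3 other rises were from 379 to 1626 CPM (4.29-fold), from 484 to 1714 CPM (3.54-fold) and from 967 to 1946 CPM (2.01-fold). The last had 1682 CPM in blood replicate 2, above the 1582 CPM of meninges replicate 1, and an adjusted p of 0.0294 in edgeR's test. Its replicates 1, 2 and 3 held 590, 1682 and 629 CPM in blood and 1582, 2475 and 1779 CPM in meninges. The 3 other falls were from 1572 to 545 CPM (2.88-fold), from 4504 to 2052 CPM (2.19-fold) and from 3833 to 1888 CPM (2.03-fold), all without overlap.

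The 2 genes with the largest rise were chosen, like the 2 largest falls, among called genes beyond 2-fold, with at least 10 CPM in the higher group and no overlap, a rule that 266 rises and 302 falls met. ENSRNOG00000036942 was nearly silent in blood, with 10, 4 and 4 counts (0.565, 0.229 and 0.294 CPM), and had 816, 825 and 982 counts in meninges (71.0, 66.2 and 61.9 CPM). The meninges libraries lay close together and far above blood. The rise was 7.46 in log2 units (SE 0.31, adjusted p = 6.26e-09 in edgeR's test), and the ratio of summed counts after division by library totals was 178, with an exact 95% interval of 112 to 301. Its means were 12.7 ± 3.76 CPM (SD, n = 3) in CSF and 177 ± 30.1 in parenchyma. The direct tests gave 2.39 for meninges minus CSF (SE 0.19, adjusted p = 1.69e-05) and 1.42 for parenchyma minus meninges (SE 0.17, adjusted p = 0.000299) on the log2 scale.

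ENSRNOG00000011406 had 5, 1 and 1 counts in the blood libraries and 309, 238 and 505 in meninges, which is 26.9, 19.1 and 31.8 CPM. The groups were far apart, although the blood level rests on 7 counts, 5 of them in replicate 1. The log2 difference was 7.43 (SE 0.58, adjusted p = 7.62e-07 in edgeR's test), and 8.49 without blood replicate 1, and the ratio of summed counts after division by library totals was 184, with an exact 95% interval of 88.9 to 458. Its mean was 0.138 CPM in blood and 25.9 in meninges, and in the compartments not compared here it was 2.10 CPM (CSF) and 93.5 CPM (parenchyma).

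ENSRNOG00000028015 had the largest fall among the genes that met the rule of at least 10 CPM in the higher group and no overlap. Genes below that level had larger fitted falls, up to 515-fold. For 2 of the 52 genes more than 4-fold lower the meninges libraries held no counts, and the size of such a fitted fall was not measured. ENSRNOG00000028015 stood at 19.3, 9.32 and 13.0 CPM in blood, from 342, 163 and 177 counts, and had 3, 2 and 1 counts in the meninges libraries. All meninges libraries were at or under 3 counts, the limit set by a count of 0. Meninges minus blood was -6.45 on the log2 scale (SE 0.44, adjusted p = 2.23e-07 in edgeR's test), and summed counts in blood were 93.0 times those in meninges after division by library totals, with an exact 95% interval of 42.5 to 254. In CSF and parenchyma it had 4 and 6 counts over 3 libraries each, and the tests of meninges against CSF (adjusted p = 0.669) and of parenchyma against meninges (adjusted p = 0.904) called no difference at these counts. It was the only gene that had 10 CPM or more in blood and stayed under 0.5 CPM in meninges.

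ENSRNOG00000005825 had the next largest fall under the same rule, and it was uneven between libraries. Its levels were 49.4, 6.58 and 24.6 CPM in blood and 4.00, 1.28 and 5.17 CPM in meninges. The lowest blood library was only slightly above the highest meninges library. Its log2 difference was -2.91 (SE 0.77, adjusted p = 0.00991 in edgeR's test). The call was lost with limma-voom (adjusted p = 0.0767), without blood replicate 1 (-2.10, adjusted p = 0.0577) and without blood replicate 3 and meninges replicate 2 together (adjusted p = 0.0604). In parenchyma the level was 33.6 ± 16.6 CPM (SD, n = 3), 3.24 higher than in meninges on the log2 scale (SE 0.77, adjusted p = 0.0162), and in CSF it was 2.45 ± 2.65 CPM.

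**Figure D4:**
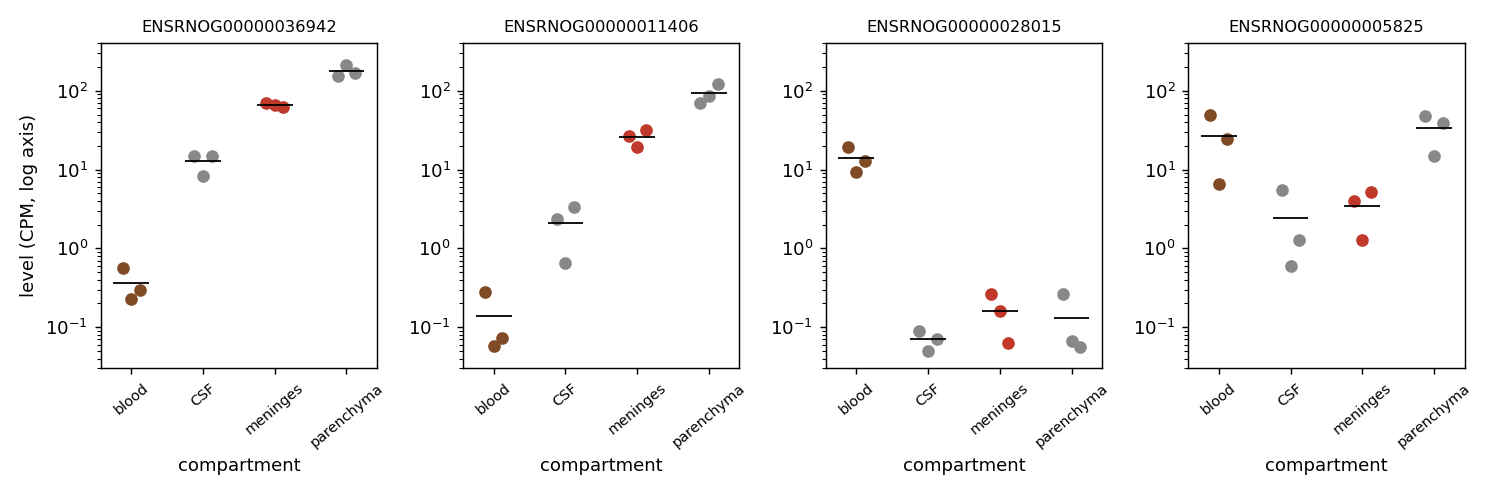
CPM (vertical log axis) of the 4 genes given by identifier in each of the 12 libraries, with compartments on the horizontal axis, 3 points per compartment and a line at the mean. In the 2 panels on the left meninges libraries lie above all CSF and blood libraries and below all parenchyma libraries, the third panel is low in all compartments but blood, and in the fourth blood and parenchyma lie above meninges and CSF.

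Few genes went from near absence to a clear level. Under 0.5 CPM in blood but 10 CPM or more in meninges was the pattern of 6 genes, among them both rises named above. Their means ran from 0.138 to 0.450 CPM in blood and from 12.2 to 66.4 CPM in meninges. In CSF the 6 genes stood at 2.10 to 12.7 CPM and in parenchyma at 36.9 to 177 CPM, and each of the 6 was called higher in meninges than in CSF and higher in parenchyma than in meninges. Among all genes in the files, including those too low to test, 87 had counts in all 3 meninges libraries and none in blood, and 49 the reverse. Both groups had a median of 5 counts over the 3 libraries, and 3 of the 87 and 2 of the 49 passed the filter on low counts. Of those tested 2 of the 3 and both of the others were called, and the rest had too few counts to be tested. The highest of them reached a mean of 1.13 CPM in meninges and 4.07 CPM in blood.

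The genes changed beyond 2-fold were followed in the libraries of CSF and parenchyma, which were not part of the contrast but shared its filter, scaling and estimate of spread. With blood and meninges alone in the fit the lists held 473 and 488 genes in place of 511 and 533. Since the lists were chosen on these meninges libraries, the choice by itself can place another compartment nearer to blood than meninges is, and the positions are given without a test. The 511 genes higher in meninges took 1.65%, 2.27% and 1.59% of gene counts in blood replicates 1, 2 and 3 and 5.23%, 5.31% and 5.09% in meninges. Replicate 2 had the highest share in blood, and it did so in meninges, CSF and parenchyma too. Its value in blood includes the 6287 CPM of the gene with the largest gain, but other genes of the list were also high there. For example, 1 stood at 590, 1682 and 629 CPM in blood replicates 1, 2 and 3. The same genes took 4.72% ± 0.157 (SD, n = 3) in CSF and 6.95% ± 0.527 in parenchyma, with CSF libraries at 4.57% to 4.88% and parenchyma libraries at 6.48% to 7.52%. The 533 genes lower in meninges took 4.11%, 3.99% and 4.31% in blood and 1.64%, 1.82% and 1.78% in meninges. They took 1.72% ± 0.0400 in CSF, within the range of the meninges libraries, and 1.24% ± 0.0916 in parenchyma. For the 192 genes more than 4-fold higher the mean share was 0.145% in blood and 0.573% in CSF, and 0.913% and 1.45% in meninges and parenchyma, without overlap between compartments. For the 52 genes more than 4-fold lower they were 0.0909%, 0.0157%, 0.0190% and 0.0147%.

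**Figure D5:**
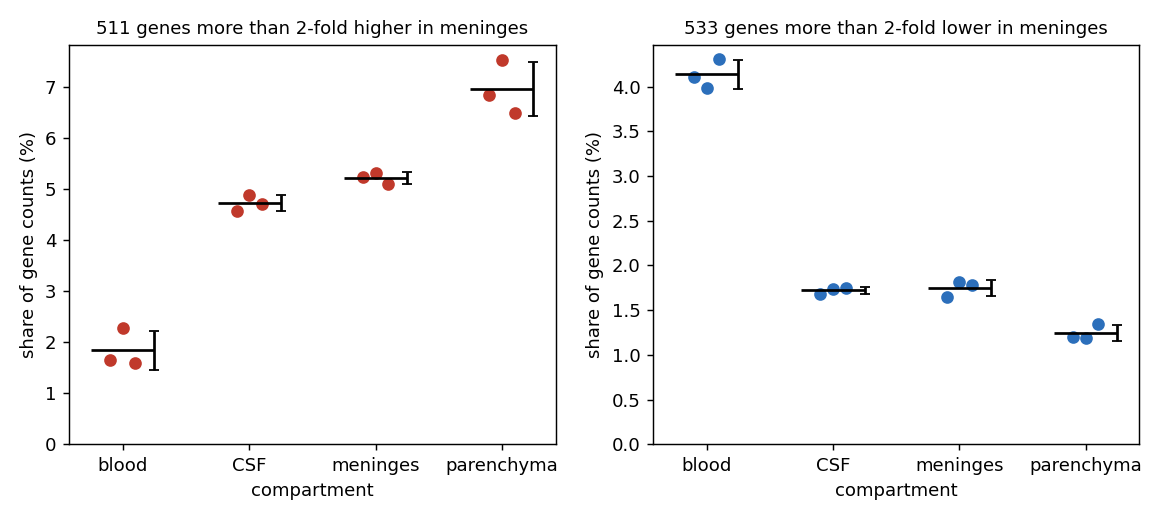
Share of gene counts (vertical axes, percent) taken by the genes more than 2-fold higher (left) and more than 2-fold lower (right) in meninges, by compartment (horizontal axes), with 1 point per library, a line at the mean and a bar of 1 SD. Blood and meninges differ by the choice of genes, and CSF and parenchyma entered the fit but not the contrast. On the left CSF lies between 4.57% and 4.88% and parenchyma between 6.48% and 7.52%, and on the right CSF overlaps meninges.

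Direct tests showed where the meningeal profile differed from that of the neighbouring compartments. Between meninges and CSF 2.51% of all genes tested were called, 1.97% higher and 0.539% lower in meninges, and among the 1908 genes higher in meninges than in blood 174 were (9.12%), 166 of them higher in meninges than in CSF and 8 lower. Among the 2187 genes lower than in blood 43 were called against CSF (1.97%), 22 lower and 21 higher in meninges. The share grew with the size of the rise: 32 of 961 rises under 1.5-fold were called against CSF, 36 of 436 from 1.5 to 2-fold, 41 of 319 from 2 to 4-fold, 30 of 119 from 4 to 8-fold and 35 of 73 beyond 8-fold. All 65 of the calls beyond 4-fold were higher in meninges than in CSF. Of the 52 falls beyond 4-fold 0 were called against CSF by edgeR, with 8 at an unadjusted p under 0.05, and DESeq2 called 1 of them and limma-voom 0. These 52 genes stood at medians of 0.397 CPM in meninges and 0.413 CPM in CSF, against 7.10 and 2.98 CPM for the 192 rises. With so few counts the test could hardly call the falls, so the numbers of calls among rises and falls cannot be compared. The 2 comparisons share the meninges libraries, so a deviation of those libraries enters both. Genes called in both comparisons numbered 217. Refits gave lists of 97 without meninges replicate 1 and 103 without meninges replicate 3, of which 85 and 93 were higher than in blood.

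Between parenchyma and meninges 12% of all genes tested were called, 6.58% higher and 5.37% lower in parenchyma, among them 396 of the 1908 genes higher than in blood (20.8%) and 413 of the 2187 lower (18.9%). Most of them differed further in the same direction, with 342 higher again and 367 lower again in parenchyma, and 54 and 46 differed back toward the blood level. Beyond 8-fold, 33 of the 73 rises were higher again in parenchyma and 2 were lower there. Of the 12 falls beyond 8-fold 1 was called, and it was higher in parenchyma. Here too both comparisons use the meninges libraries. Genes called in both numbered 809, and refits gave lists of 511, 495 and 454 without meninges replicate 1, 2 or 3.

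Neither of these tests called a difference for 3217 of the 4095 genes, 1461 higher and 1756 lower than in blood. For these genes a difference of meninges from CSF or from parenchyma was not detected, which does not show that the levels were equal. Both tests called a difference for 148 of the 4095 genes, 123 higher and 25 lower than in blood. Such genes can lie between CSF and parenchyma in level. Of the 7403 genes not called against blood, neither test called 6792 and both called 27.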

How the data were processed

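RNA was sequenced in 3 libraries per compartment. The deposited files hold whole-number counts of reads per Ensembl gene, not normalized, for the same 26405 identifiers. Tools named in the submitters' processing notes, without roles, are STAR, HTSeq, SAMtools, DESeq2 and CASAVA 1.8.2. The sources used here give no genome build, annotation release or strand setting. Entries listed as ambiguous, 0.0412% to 0.0911% per library, were counted to no gene, so overlapping genes may lose reads. Near-identical copies of a gene may lose reads that align to several places. The 5 summary lines of each file, with 15.5% to 21.9% of entries outside genes and 35.8% to 65.2% aligned to several places, stayed out of library sizes and tests.

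The analysis used edgeR 4.0.16 under R 4.3.3: filterByExpr, TMM scaling, and 1 quasi-likelihood fit over 12 libraries with compartment as the only term, with Benjamini-Hochberg adjustment over 11498 genes. Genes tested held 99.88% to 99.95% of the gene counts of each library. Standard errors were derived from the F statistic. The test was also run on counts simulated with known changes, drawn with the spread estimated by this same fit. That run held no other differences between libraries and says nothing about the results above. The alternatives included DESeq2 1.42.0, limma-voom (limma 3.58.1), other scalings, filters and thresholds, a replicate block and leaving out libraries.

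The comparison, the gene lists and the tests were chosen with earlier results of these data known. The 33 planned gene lists (T cell functions, cell type markers) need names and were not used. Genes given by identifier are the 2 largest rises and 2 largest falls among called genes beyond 2-fold, with at least 10 CPM in the higher group and no overlap between groups.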

Additional observations from a re-analysis of the deposited data

How the results depend on the processing

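No called gene took the opposite direction under any of the 17 alternatives. The 4095 genes called between meninges and blood were 2649 at an adjusted p under 0.01 (1234 higher, 1415 lower) and 913 beyond 1.5-fold (453 higher, 460 lower), by construction of the thresholds. With 1 library left out, the new lists held 3182 to 3723 genes (1489 to 1828 higher, 1621 to 1895 lower) and included 76.3% to 84.0% of the 4095. Without blood replicate 3 and meninges replicate 2 together the list held 2987 genes, with 1440 lower, and included 68.6% of the 4095. Genes beyond 2-fold ran from 938 to 1165 with 1 library left out (460 to 578 higher, 461 to 587 lower). Genes beyond 4-fold ran from 180 to 227 higher and 50 to 108 lower, and 100 were lower without the filter on low counts, where the cause was not tested. The library numbers as a replicate block gave 5148 calls, 4094 of the 4095 among them. Deviations of blood and meninges libraries of the same number correlated at 0.22, 0.25 and 0.08, and those of unlike number at -0.36 to 0.22. Each blood library correlated best with the meninges library of its own number, for blood replicate 1 almost level with meninges replicate 3 at 0.22. Meninges replicate 3 correlated better with blood replicate 1 than with blood replicate 3. For the gene with the largest gain, replicate 2 was the highest library in blood, CSF, parenchyma and meninges (6287, 14331, 20248 and 13308 CPM). For ENSRNOG00000005825 replicate 2 was the lowest in each (6.58, 0.602, 15.1 and 1.28 CPM). How many genes share such a pattern was not tested. The low correlations and these single genes do not settle whether the numbers pair the samples. The labels do not say so either, and the main fit did not pair them.

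Genes called both against blood and against CSF numbered 217. DESeq2 gave 343, the unfiltered fit 579, the threshold of 0.01 gave 86, that of 1.5-fold 44 and the replicate block 732, and it was 97 to 234 with 1 library left out. Those called both against blood and against parenchyma numbered 809. The threshold of 0.01 gave 330, that of 1.5-fold 49 and the block 1480, and it was 454 to 766 with 1 library left out and 427 without blood replicate 3 and meninges replicate 2. The thresholds of 0.01 and 1.5-fold lower these numbers by construction. The cause of the other differences was not tested. With 1 library left out the log2 fold changes were 7.20 to 7.97 for ENSRNOG00000036942, 7.04 to 8.49 for ENSRNOG00000011406, -6.92 to -6.00 for ENSRNOG00000028015 and -3.37 to -2.10 for ENSRNOG00000005825. The fit without the filter gave ENSRNOG00000005825 an adjusted p of 1.33e-43 despite its uneven blood libraries, so p-values of that fit were not compared with the others. In the other alternatives its adjusted p ran from 2.78e-06, with the replicate block, to 0.0767. With abundance set by the blood mean alone 23.9% of the genes under 1 CPM were called. Depth limits the genes under 1 CPM, of which 0 had an interval inside 1.5-fold.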
